A study of Mus musculus with 12 samples.

Results

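Trp53 and 9 genes of its network in mouse embryonic spinal cord cells are described here: the p53 targets Cdkn1a, Mdm2, Ccng1, Bbc3, Bax, Phlda3 and Trp53inp1, and the anti-apoptotic genes Bcl2 and Bcl2l1. The 10 genes were taken by symbol from a table of 21030 named genes, and all 10 were found and passed the filter on low counts that left 15737 genes for testing. Cells came from the spinal cords of wild-type C57BL/6 embryos at embryonic day 12 and grew for 48 hours on 4 coats with 3 libraries each, 12 in all. The Myelin wells had wild-type myelin membranes at 10 μg/ml, the Laminin+Myelin wells had these and laminin at 1 μg/ml, the Laminin wells had laminin at 1 μg/ml, and the PDL wells had neither. All wells, PDL included, carried a first layer of poly-D-lysine (PDL) at 20 μg/ml, a polymer to which cells attach. Laminin is a basement membrane protein, and myelin is the sheath of membrane that surrounds axons. The libraries of each coat are numbered 1 to 3 and are named biological replicates, with nothing said of litters or of culture days. The p-values therefore measure the spread between these wells, which may in part be technical. The numbers name sets of 4 libraries, 1 per coat, and carry no order.

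The protein p53 is a transcription factor that is kept at a low level by Mdm2 and accumulates after DNA damage and other stress. It then raises genes that halt the cell cycle, such as Cdkn1a, and genes that open the mitochondrial route to cell death, such as Bbc3 and Bax. Bcl2 and Bcl2l1 hold that route closed. In the embryonic nervous system the balance between these proteins is known to set how many young neurons survive.

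The libraries held between 36061511 and 45024091 counts in genes. Levels are given in CPM, the count of a gene divided by its library's effective size. Markers of neurons summed to between 7105 and 9032 CPM, and neural progenitor markers to 409 to 876 CPM. Hox genes of the spinal cord summed to 558 to 734 CPM, whereas 3 forebrain genes summed to 2.19 to 5.41 CPM, which fits a spinal cord source. Reads outside annotated genes made up 10.8% to 12.4% of all counts in Myelin, 11.0% to 11.9% in Laminin+Myelin, 8.46% to 13.7% in Laminin and 17.4% to 19.4% in PDL. PDL therefore differed from the other coats in this share, and Laminin replicate 1 had the lowest. Genes typical of mature myelin summed to 282 to 910 CPM in Myelin and 272 to 483 CPM in Laminin+Myelin, against 45.6 to 62.2 CPM in Laminin and 50.7 to 58.8 CPM in PDL. Bulk RNA cannot tell fewer cells of a type from less RNA per cell.

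The promoters that hold a p53 half-site are shown first, since 7 of the 10 genes are described as p53 targets. In the RefSeq table for GRCm38.p6, 9 of the 10 genes had a promoter entry, with 14 start sites. The 250 bases before each start were searched on both strands for the p53 half-site, a motif of 10 letters. It was found for Trp53, Cdkn1a, Mdm2, Ccng1 and Bax, that is 5 genes, against 8.2% of all 27025 genes with an entry. Before the upstream start of Cdkn1a, 2 half-sites stood close enough to form a full site (spacer of at most 13 bases), which 0.0666% of genes had. A match describes the letters of the window and not a bound site. In the stretches below, read 5′ to 3′ on the strand of the gene, capitals mark the half-sites.
Cdkn1a, the 250 bases before its upstream start (chr17:29090729-29090978, plus strand): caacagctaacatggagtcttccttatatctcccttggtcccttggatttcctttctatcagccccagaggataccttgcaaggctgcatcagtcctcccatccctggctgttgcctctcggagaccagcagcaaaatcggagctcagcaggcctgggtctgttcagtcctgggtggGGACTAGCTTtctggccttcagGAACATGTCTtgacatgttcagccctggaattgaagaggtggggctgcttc
Trp53, within chr11:69580109-69580358, plus strand: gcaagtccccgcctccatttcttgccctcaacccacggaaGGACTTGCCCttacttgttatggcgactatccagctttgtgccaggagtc
Mdm2, within chr10:117710759-117711008, minus strand: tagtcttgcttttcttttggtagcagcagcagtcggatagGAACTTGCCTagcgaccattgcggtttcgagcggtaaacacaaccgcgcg
Ccng1, within chr11:40755287-40755536, minus strand: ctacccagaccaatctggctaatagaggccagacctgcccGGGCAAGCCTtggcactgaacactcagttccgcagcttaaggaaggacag
Bax, within chr7:45466899-45467148, minus strand: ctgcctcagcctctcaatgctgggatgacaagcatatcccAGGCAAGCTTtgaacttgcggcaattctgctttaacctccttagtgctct

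Scaled to exon length, Bax had the highest level of the 10 genes, at 46.0 ± 5.1 CPM per kilobase (SD, n = 12 libraries), and Bcl2 the lowest at 4.70 ± 0.46. Bcl2l1 followed Bax with 32.0 ± 4.0 CPM per kilobase. Next came Ccng1 with 27.5 ± 6.1, Trp53inp1 with 23.1 ± 2.5, Mdm2 with 19.7 ± 3.0 and Cdkn1a with 16.8 ± 6.0, then Trp53 with 12.8 ± 1.2, Bbc3 with 10.2 ± 3.4 and Phlda3 with 5.41 ± 1.29 CPM per kilobase. Each gene's range over the 12 libraries overlapped that of its neighbour in this order. All values below are CPM without scaling to length and are read within a gene. Part of the exons was shared with another gene for Cdkn1a (7.68%, AC167363.2 on the opposite strand), Bax (12.2%, Gm45808 on the same strand) and Bcl2 (6.09%, the antisense gene D630008O14Rik), and whether the counting used strand is not given in the sources used here.

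Between coats, 0 of the 10 genes passed the test in any of the 8 comparisons without a replicate block, by edgeR's quasi-likelihood test at a Benjamini-Hochberg adjusted p of 0.05. With replicate number as a block in the fit, 1 gene passed for Myelin, 2 for Laminin and 1 for Laminin+Myelin, each against PDL, and 1 for both myelin coats against both without, as described below with the share of all genes that passed. Between replicate numbers, with coat kept in the fit, 8 of 10 passed, against 39.9% of all genes tested (6276 of 15737). Cdkn1a led these, at 2.43 times the level with number 3 compared with number 1. The 2 genes that did not pass, Bcl2 and Bax, were those with the largest share of variance between coats.

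**Figure D1:**
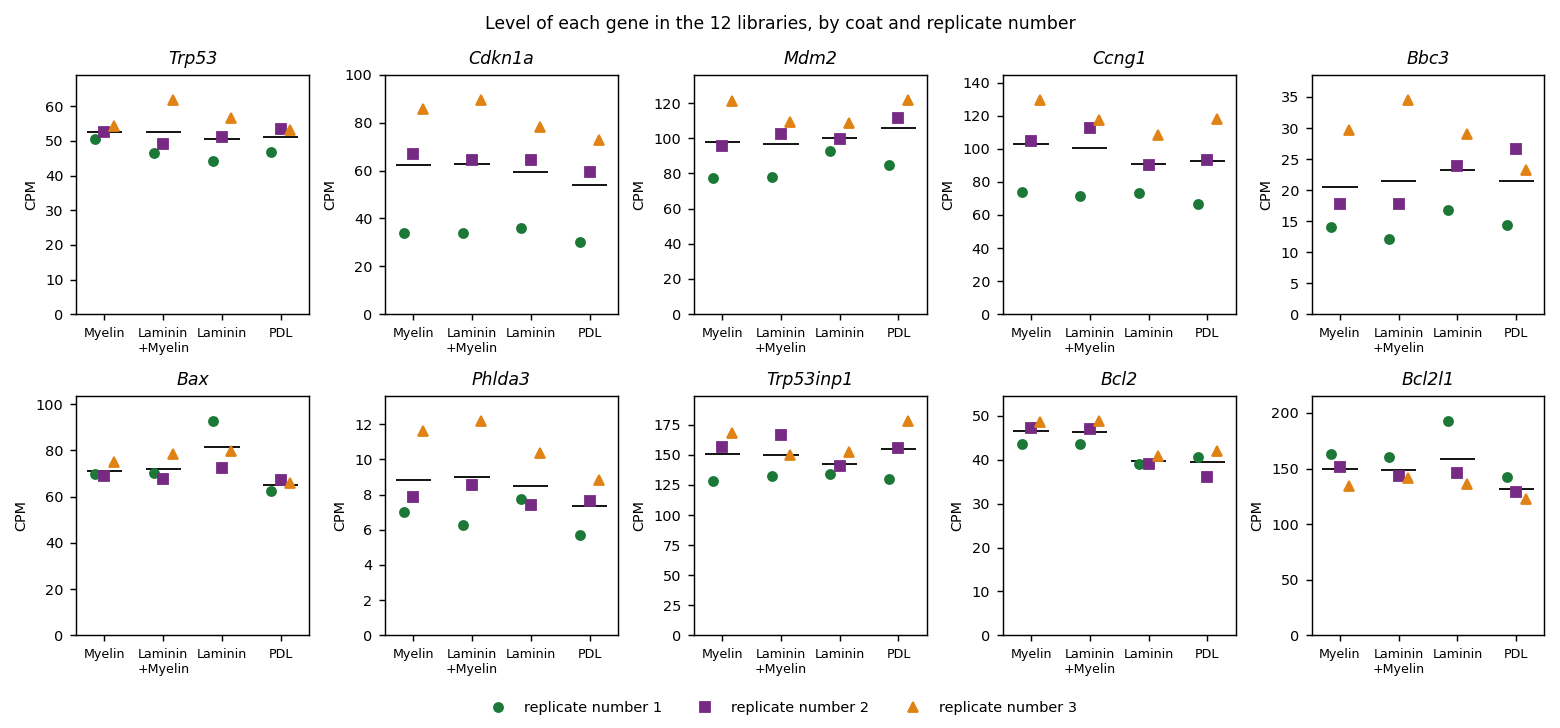
Level of each gene in CPM (linear axes) in the 12 libraries, grouped by coat, with symbols for replicate numbers 1 to 3 and a bar for the mean of 3 libraries. For Cdkn1a the number 1 libraries lie at 30.0 to 36.1 CPM and the number 3 libraries at 72.8 to 89.4 CPM on every coat, while the 6 libraries with myelin lie above the 6 without it for Bcl2.

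Trp53 (chr11:69580359-69591873, plus strand, GRCm38, GENCODE M21, as are all gene positions here) encodes p53 itself. It had 50.6, 52.6 and 54.4 CPM in Myelin replicates 1, 2 and 3, 46.6, 49.0 and 61.8 CPM in Laminin+Myelin, 44.3, 51.1 and 56.7 CPM in Laminin, and 46.8, 53.4 and 53.2 CPM in PDL. The coats overlapped throughout. Its log2 change was 0.04 ± 0.12 (SE) for Myelin against PDL and -0.01 ± 0.12 for Laminin against PDL, by edgeR with adjusted p of 0.913 and 0.974. Over the replicate numbers it averaged 47.0 ± 2.6, 51.5 ± 1.9 and 56.5 ± 3.8 CPM (SD, n = 4 each) for numbers 1, 2 and 3. That difference passed the test (adjusted p = 0.0189), and it was lost in 3 of 12 fits that each left out 1 library, with adjusted p up to 0.0758.

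Mdm2 (chr10:117688875-117710758, minus strand) encodes the ubiquitin ligase that marks p53 for degradation and is itself a p53 target. It had 77.5, 95.5 and 121.2 CPM in Myelin, 78.0, 102.6 and 109.1 CPM in Laminin+Myelin, 92.5, 99.4 and 108.8 CPM in Laminin, and 84.8, 111.5 and 121.6 CPM in PDL. On every coat the lowest library was number 1 and the highest number 3. Within replicate numbers the ratio of Laminin+Myelin to PDL was 0.898 to 0.920, below 1 in 3 of 3 pairs, and that of Myelin to PDL 0.857 to 0.997, also in 3 of 3. These differences did not pass, with log2 changes of -0.13 ± 0.18 and -0.11 ± 0.18 (adjusted p 0.762 and 0.807). A block for replicate number gave adjusted p of 0.260 and 0.315.

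Cdkn1a (chr17:29090976-29100727, plus strand) encodes p21, an inhibitor of cyclin-dependent kinases that stops cells before DNA replication. It had 33.9, 66.9 and 85.8 CPM in Myelin replicates 1, 2 and 3, 34.0, 64.5 and 89.4 CPM in Laminin+Myelin, 36.1, 64.3 and 78.2 CPM in Laminin, and 30.0, 59.2 and 72.8 CPM in PDL. The 3 sets of libraries with the same number did not overlap with each other, whereas the coats did. How often the sets of other genes stood apart in this way was not counted. Replicate number accounted for 97.0% of the variance of its log2 CPM and coat for 2.24%, where the medians over all genes tested were 37.1% and 26.8%.

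The difference of Cdkn1a between numbers was -0.93 ± 0.06 on the log2 scale for number 1 minus number 2 and 0.35 ± 0.06 for number 3 minus number 2 (edgeR adjusted p = 1.02e-07). It ranked 21 among the 15737 genes by p-value, and it passed in all 12 fits that each left out 1 library. Within each number, PDL had the lowest Cdkn1a of the 4 coats, as it had for Bax and Bcl2l1, that is 3 of the 10 genes against 16.2% of all genes tested. The ratio to PDL within numbers was 1.13 to 1.18 in Myelin, 1.09 to 1.23 in Laminin+Myelin and 1.074 to 1.203 in Laminin. The log2 change with the block was 0.20 ± 0.07 for Myelin and for Laminin+Myelin against PDL, with adjusted p of 0.0645 and 0.0622, and 0.16 ± 0.07 for Laminin (0.117). Of 12 fits with the block that each left out 1 library, 1 called Cdkn1a on both myelin coats against PDL, with adjusted p of 0.00977 and 0.00902, and the highest adjusted p were 0.208 and 0.211. That fit, without Laminin replicate 1, also called 5210 and 5155 of all genes tested.

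The 3 genes whose pattern over the 12 libraries was closest to that of Cdkn1a were Cd82, Smad7 and Tgif1, by root mean square difference of centred log2 CPM (0.122, 0.123 and 0.128). Smad7, an inhibitor of TGF-β signalling, averaged 9.89, 18.5 and 23.7 CPM with numbers 1, 2 and 3. Tgif1, a repressor in the same pathway, averaged 2.88, 5.57 and 7.75 CPM, and Cd82, a tetraspanin of the cell surface, 1.42, 2.28 and 3.11 CPM.

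Ccng1 (chr11:40748552-40755311, minus strand) encodes cyclin G1, a p53 target that works with Mdm2 and a phosphatase. It had 73.9, 104.8 and 129.4 CPM in Myelin, 71.3, 112.6 and 117.2 CPM in Laminin+Myelin, 73.0, 90.2 and 108.6 CPM in Laminin, and 66.9, 93.0 and 117.7 CPM in PDL. As for Mdm2 and Cdkn1a, number 1 was lowest and number 3 highest on all 4 coats, a pattern of 3 of the 10 genes and 7.82% of all genes tested. Number 3 had 1.66 times the level of number 1 (adjusted p = 1.12e-05), and Mdm2 1.39 times (adjusted p = 0.000515).

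Phlda3 (chr1:135766119-135769136, plus strand), a p53 target that restrains Akt signalling, was the least abundant of the set in CPM. It had 7.01, 7.89 and 11.6 CPM in Myelin, 6.30, 8.52 and 12.2 CPM in Laminin+Myelin, 7.74, 7.41 and 10.4 CPM in Laminin, and 5.68, 7.62 and 8.82 CPM in PDL. Number 3 was highest on every coat, at 1.60 times number 1 over the coats (adjusted p = 0.000685). How many of all genes had number 3 highest on every coat was not counted. The coats overlapped, and the log2 change of 0.26 ± 0.27 for Myelin against PDL did not pass (adjusted p = 0.676).

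Trp53inp1 (chr4:11156431-11174379, plus strand) encodes a stress protein that helps p53 raise death genes and also acts in autophagy. It had 127.9, 156.7 and 167.9 CPM in Myelin, 132.6, 166.4 and 149.8 CPM in Laminin+Myelin, 134.5, 140.8 and 152.8 CPM in Laminin, and 129.9, 155.9 and 178.0 CPM in PDL. Number 1 was lowest on every coat, and number 3 stood at 1.23 times number 1 (adjusted p = 0.00681). How many of all genes had number 1 lowest on every coat was not counted. The changes between coats were small, from -0.12 ± 0.13 for Laminin against PDL to 0.02 ± 0.09 for both myelin coats against both coats without myelin.

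Bbc3 (chr7:16308393-16318205, plus strand) encodes PUMA, a BH3-only protein that sets off mitochondrial death. It had 14.1, 17.7 and 29.7 CPM in Myelin, 12.13, 17.7 and 34.5 CPM in Laminin+Myelin, 16.9, 23.9 and 29.1 CPM in Laminin, and 14.4, 26.5 and 23.3 CPM in PDL. Number 1 was again lowest on every coat, a pattern not counted over all genes, and number 3 stood at 2.02 times number 1 (adjusted p = 0.000606). The order of coats changed from number to number: the ratio of Laminin+Myelin to PDL ran from 0.667 to 1.48.

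**Figure D2:**
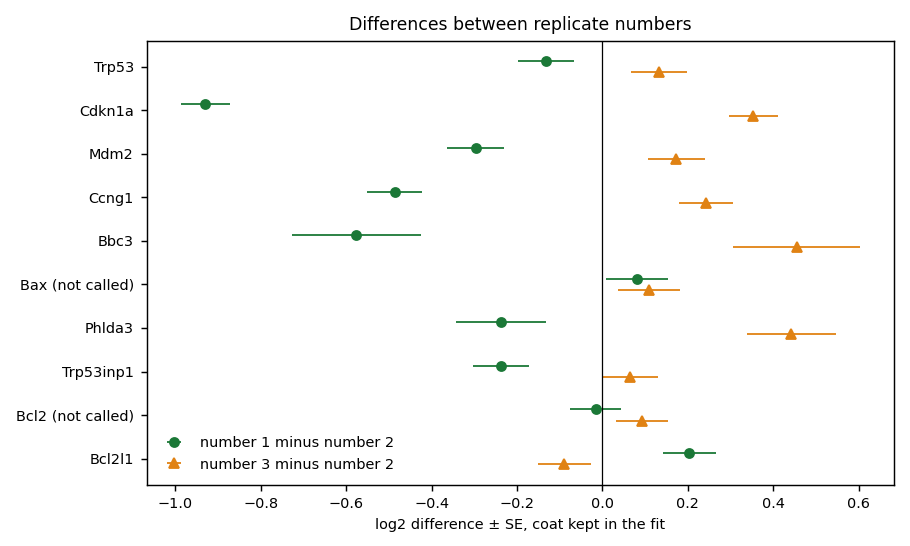
Difference of each gene between replicate numbers on the log2 scale, with its standard error, for number 1 minus number 2 (circles) and number 3 minus number 2 (triangles), with coat kept in the fit. Cdkn1a has the widest spread, from -0.93 to 0.35, Bcl2l1 is the called gene that runs the other way, and Bax and Bcl2 were not called.

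Bcl2l1 (chr2:152780668-152831728, minus strand) encodes Bcl-xL, the anti-apoptotic protein on which young neurons are known to depend. It had 162.7, 151.5 and 134.4 CPM in Myelin, 160.0, 143.3 and 141.7 CPM in Laminin+Myelin, 192.5, 145.8 and 136.3 CPM in Laminin, and 142.4, 128.7 and 122.5 CPM in PDL. Among the numbers it ran opposite to Cdkn1a, highest with number 1 and lowest with number 3 on all 4 coats, a pattern of 5.67% of all genes tested. Number 3 stood at 0.817 times number 1 (adjusted p = 0.00592).

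Between coats, Bcl2l1 was higher in Laminin than in PDL at every number, with ratios of 1.11 to 1.35, and the highest of the 12 libraries was Laminin replicate 1. The log2 change was 0.27 ± 0.13 and did not pass without the block (adjusted p = 0.301). With the block it was 0.26 ± 0.07 and passed (adjusted p = 0.0464), where 8.15% of all genes passed, 2.66% upward. Without Laminin replicate 1, that log2 change was 0.17 ± 0.05 and did not pass (adjusted p = 0.0905).

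Bax (chr7:45461697-45466898, minus strand) encodes the protein that forms pores in the outer mitochondrial membrane. It had 69.7, 68.9 and 74.8 CPM in Myelin, 70.1, 67.7 and 78.4 CPM in Laminin+Myelin, 92.5, 72.4 and 79.6 CPM in Laminin, and 62.3, 67.1 and 65.9 CPM in PDL. Every library of the other 3 coats lay above every PDL library, as did 12% of all genes for Myelin, 10.6% for Laminin+Myelin and 10.4% for Laminin. The log2 change of Laminin against PDL was 0.33 ± 0.09 without the block (adjusted p = 0.169) and 0.32 ± 0.08 with it (adjusted p = 0.0409). Without Laminin replicate 1, the library with 92.5 CPM, the value with the block was 0.20 ± 0.06 (adjusted p = 0.0715). Bax and Bcl2l1 were the 2 genes called in that comparison with the block, and each call held in 2 of 12 fits that each left out 1 library, those without Laminin replicate 2 or 3. The highest adjusted p over the 12 fits was 0.216 for Bax and 0.223 for Bcl2l1. With the block, 3 of 5 mesenchyme markers and 1 of 6 microglia markers also rose on Laminin against PDL (medians 0.63 and 0.69), and their part in the Bax and Bcl2l1 differences was not tested.

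Bcl2 (chr1:106538178-106714274, minus strand), which encodes the founding anti-apoptotic protein of the family, was the gene that separated wells with and without myelin. It had 43.7, 47.3 and 48.6 CPM in Myelin, 43.6, 47.0 and 48.8 CPM in Laminin+Myelin, 39.0, 39.2 and 40.8 CPM in Laminin, and 40.6, 36.0 and 42.1 CPM in PDL. All 6 libraries with myelin lay above all 6 without, a separation seen upward in 0.426% of all genes tested. Means were 46.5 ± 2.6, 46.5 ± 2.7, 39.6 ± 1.0 and 39.6 ± 3.2 CPM for Myelin, Laminin+Myelin, Laminin and PDL (SD, n = 3 each). Coat accounted for 73.8% of its variance and replicate number for 12.8%.

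For both myelin coats against both coats without myelin, the log2 change of Bcl2 was 0.23 ± 0.06 and did not pass without the block (adjusted p = 0.106, where 0.0254% of all genes passed). With the block it was 0.23 ± 0.05 and passed (adjusted p = 0.0193, where 8.63% of genes passed, 3.03% upward). DESeq2 without a block also called it (adjusted p = 0.00966). Against PDL, the block gave 0.23 ± 0.07 for Myelin (adjusted p = 0.0440, where 14.4% of genes passed, 4.37% upward) and 0.23 ± 0.07 for Laminin+Myelin (adjusted p = 0.0474, where 13.6% passed, 4.3% upward). Leaving out 1 library at a time with the block, the call on myelin held in 6 of 12 fits, that of Myelin against PDL in 3 and that of Laminin+Myelin against PDL in 1, with adjusted p up to 0.0799, 0.211 and 0.217. Laminin alone gave 0.00 ± 0.08 against PDL (adjusted p = 0.993). With reads outside genes as a further term beside the block, the change on myelin was 0.15 ± 0.09 and did not pass (adjusted p = 0.470), and 0 of the 10 genes passed in any comparison. The comparisons with PDL share its 3 libraries. Mature myelin genes summed higher in the same 6 libraries. For both myelin coats against both without, with the block, 5 of 7 mature myelin markers rose and 1 fell, with a median log2 change of 3.51. In the same fit 4 of 6 microglia markers rose (median 0.88), 2 of 5 astrocyte markers rose (median 1.23), and 1 of 6 progenitor markers and 1 of 5 neuron markers rose (medians 0.17 and 0.07). Astrocyte markers summed to 57.3 to 92.8 CPM in Myelin and 52.0 to 91.6 CPM in Laminin+Myelin, against 32.7 to 59.7 CPM in Laminin and 32.0 to 61.0 CPM in PDL. Microglia markers summed to 10.8 to 46.1 CPM in Myelin and 9.001 to 43.4 CPM in Laminin+Myelin, against 8.46 to 30.1 CPM in Laminin and 6.12 to 22.9 CPM in PDL. Wells with myelin and no cells were not used, so RNA of the coat and RNA of cells cannot be told apart in these sums. The part of either in the Bcl2 difference was not tested.

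**Figure D3:**
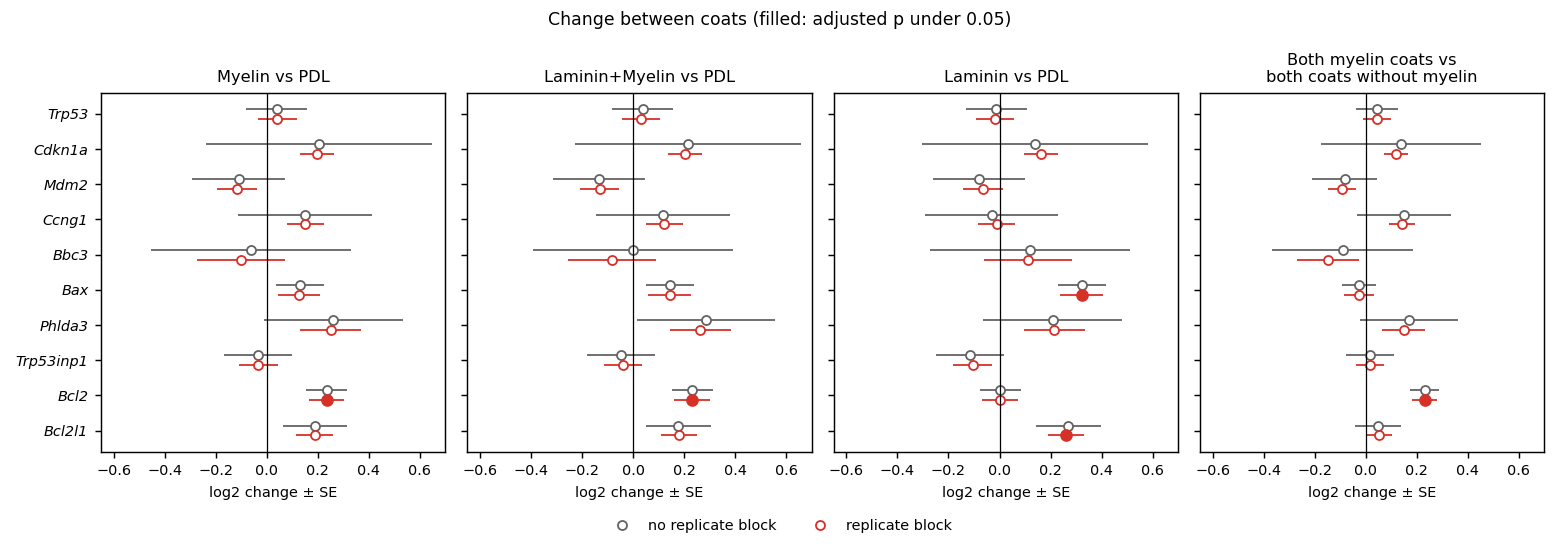
Change of each gene on the log2 scale with its standard error for Myelin, Laminin+Myelin and Laminin, each against PDL, and for both myelin coats against both coats without myelin. Grey points are from the fit without a replicate block and red points from the fit with it, and filled points passed an adjusted p of 0.05: Bcl2 in 3 panels, Bax and Bcl2l1 in the Laminin panel.

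Without the block, 2.29% of all genes passed for Myelin against PDL, 0% for Laminin, 1.25% for Laminin+Myelin, 0.0191% for Laminin+Myelin against Laminin, 0% for Laminin+Myelin against Myelin, 0.0254% for Myelin against Laminin and 0% for the interaction of myelin with laminin. A count of 0 among 10 genes was therefore near the background in each of these. The median log2 change of the 10 genes against PDL was 0.14 for Myelin, 0.06 for Laminin and 0.13 for Laminin+Myelin, beside 0.02, 0.01 and 0.02 over all genes tested. At an unadjusted p under 0.05, 1 of the 10 genes passed in each comparison but Laminin+Myelin against Myelin, where 0 did. Over all 15737 genes the same threshold was passed by 2747 for Myelin, 2735 for Laminin and 2641 for Laminin+Myelin against PDL, 2138 for both myelin coats, 1042 for the interaction, 256 for Myelin against Laminin, 201 for Laminin+Myelin against Laminin and 29 for Laminin+Myelin against Myelin. DESeq2 called 1 gene, Bcl2, in the comparison of both myelin coats with both coats without (3.81% of all genes) and 0 in the others, where it called 6.4% of all genes for Myelin, 3.27% for Laminin and 6.01% for Laminin+Myelin, each against PDL. The authors' deposited table listed 0 of the 10 genes under an adjusted p of 0.05 in any of its 6 pairs of coats, and the lowest adjusted p among them was 0.235. Of its 21030 named genes, it listed 452 for Myelin, 352 for Laminin+Myelin and 76 for Laminin, each against PDL. It listed 11 for Laminin against Myelin, 9 for Laminin+Myelin against Laminin and 0 for Laminin+Myelin against Myelin. The interaction, which asks whether the myelin change differed with and without laminin, gave adjusted p of at least 0.733 for the 10 genes.

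The ratio of Bax to Bcl2 counts, a pro-death over a pro-survival transcript, was 1.53 ± 0.07 in Myelin, 1.55 ± 0.10 in Laminin+Myelin, 2.06 ± 0.28 in Laminin and 1.65 ± 0.18 in PDL (SD, n = 3 each). The lowest Laminin library had a ratio of 1.85, against 1.86 for the highest PDL library, so these overlapped. The highest Myelin library had 1.60 and the highest Laminin+Myelin library 1.61, both under every Laminin library. How often other pairs of genes separate in this way was not tested. Bax over Bcl2l1, the other pro-survival transcript, was 0.480 ± 0.068 in Myelin and 0.488 ± 0.059 in Laminin+Myelin. It was 0.521 ± 0.056 in Laminin and 0.499 ± 0.054 in PDL, and the ranges of all coats overlapped.

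**Figure D4:**
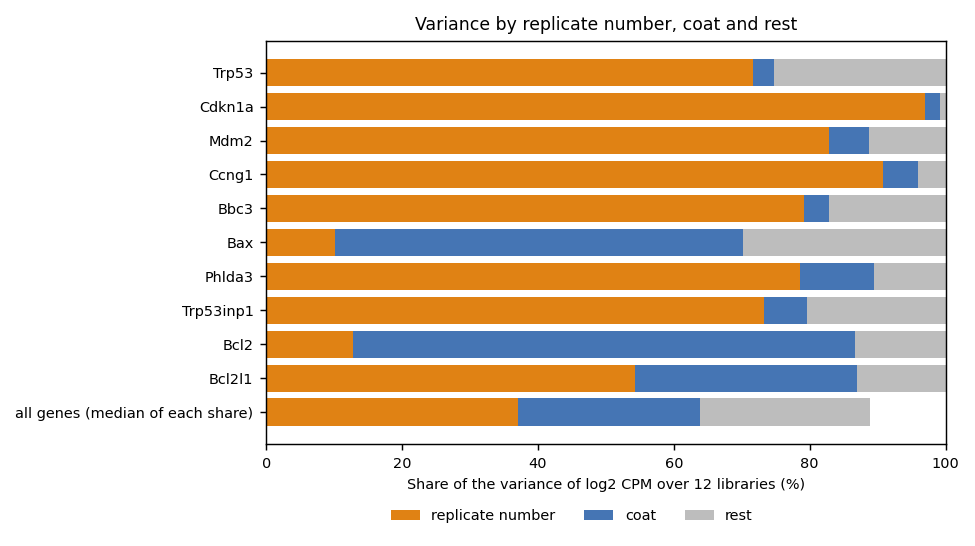
Share of the variance of log2 CPM over the 12 libraries that lay between replicate numbers, between coats and in the rest, for each gene and as the median of each share over all genes tested (these medians do not sum to 100). Replicate number held 97.0% for Cdkn1a and coat 73.8% for Bcl2.

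Among 21 regulators of p53 that were tested, Mdm4 was lower on every other coat than in PDL. Without the block, its fall against PDL passed only on the myelin coats. Mdm4 is the paralog of Mdm2 that binds p53 and blocks its activity. It had 62.1, 61.8 and 62.8 CPM in Myelin, 63.7, 64.6 and 60.1 CPM in Laminin+Myelin, 53.6, 75.0 and 69.9 CPM in Laminin, and 119.7, 110.9 and 96.2 CPM in PDL. Every PDL library lay above the other 9, and how often other genes did so was not counted.

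The log2 change of Mdm4 against PDL was -0.81 ± 0.12 for Myelin (adjusted p = 0.0254) and -0.79 ± 0.12 for Laminin+Myelin (adjusted p = 0.0345). For Laminin it was -0.72 ± 0.12 and did not pass without the block (adjusted p = 0.116), but did with it (adjusted p = 0.0171). Leaving out 1 library at a time without the block, the Myelin call held in 7 of 12 fits and the Laminin+Myelin call in 3, with adjusted p up to 0.186 and 0.217. With the block, the calls held in 12 of 12 such fits on Myelin, 11 on Laminin+Myelin and 10 on Laminin. The highest adjusted p with the block were 0.0423, 0.0551 and 0.115. With that fraction of reads falling outside genes added to the model, the log2 change on Myelin was -0.34 ± 0.18 (adjusted p = 0.478). The fraction was higher in every PDL library than in any other, so it and the PDL coat cannot be told apart here.

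Without the block 1 of 21 fell and 0 rose for Myelin against PDL, with a median log2 change of -0.15 beside 0.02 for all genes. With the block, 2 of 21 passed for Myelin, 2 for Laminin+Myelin and 3 for Laminin, where 14.4%, 13.6% and 8.15% of all genes passed. Atr, a kinase that signals stalled replication to p53, fell in all 3 of these comparisons, by 0.39 ± 0.08 on the log2 scale for Myelin, 0.36 ± 0.08 for Laminin+Myelin and 0.43 ± 0.08 for Laminin (adjusted p 0.0119, 0.0176 and 0.0195). Atm, the kinase for double-strand breaks, fell by 0.28 ± 0.07 on Laminin (adjusted p = 0.0397). Leaving out 1 library at a time, the Atr calls were lost in 4 of 12 fits on Myelin, 4 on Laminin+Myelin and 2 on Laminin, and the Atm call in 10. For replicate number 10 of 21 regulators (47.6%) passed, against 39.9% of all genes, 6 of them higher with number 3 than with number 1. These included Chek1 and Chek2, the checkpoint kinases that act below Atr and Atm, with log2 differences of 0.42 and 0.54 for number 3 minus number 2.

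Of 29 other p53 targets tested, 0 passed in any comparison with PDL without the block, and 19 passed for replicate number, 17 of them higher with number 3 than with number 1. Pmaip1, which encodes the BH3-only protein Noxa, had 3.41, 9.25 and 14.8 CPM in Myelin, 2.28, 11.3 and 12.5 CPM in Laminin+Myelin, 2.84, 7.01 and 11.0 CPM in Laminin, and 2.14, 7.80 and 10.05 CPM in PDL. Gdf15, a secreted stress cytokine, averaged 0.187, 0.749 and 1.66 CPM with numbers 1, 2 and 3. Eda2r, a receptor of the tumour necrosis factor family, averaged 5.41, 10.06 and 14.1 CPM. All 3 passed for replicate number, with adjusted p of 1.21e-06, 2.99e-06 and 4.87e-06, as did Psrc1, a microtubule protein (4.21e-06). These counts may be read against the 39.9% of all genes that passed. That share covers both directions. How many of all called genes were higher with number 3 than with number 1 was not counted, for this list or the others.

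With the block, 2 of these 29 targets passed for Myelin and 3 for Laminin+Myelin against PDL, and 3 for both myelin coats, beside 14.4%, 13.6% and 8.63% of all genes tested. For Laminin against PDL 0 passed. Fdxr, a mitochondrial electron carrier, and Dram1, a lysosomal protein of autophagy, fell on Myelin and on Laminin+Myelin against PDL, by 0.40 ± 0.12 and 0.75 ± 0.23 on the log2 scale for Myelin (adjusted p 0.0417 and 0.0476). Abhd4, a lipid hydrolase, rose by 0.38 ± 0.09 on Laminin+Myelin (adjusted p = 0.0188). For both myelin coats against both without, Abhd4 rose by 0.28 ± 0.06, Fas, the death receptor, by 0.72 ± 0.18, and Dram1 fell by 0.57 ± 0.16 (adjusted p 0.0212, 0.0319 and 0.0488). With each library left out in turn, the Abhd4 calls held in 8 of 12 fits on Laminin+Myelin and 4 on both myelin coats. Those of Fdxr held in 4 on Myelin and 3 on Laminin+Myelin, those of Dram1 in 2 on Myelin, 1 on Laminin+Myelin and 2 on both myelin coats, and that of Fas in 2.

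Of 13 further members of the Bcl2 family, 0 passed between coats without the block, and 9 (69.2%) passed for replicate number, against 39.9% of all genes, 5 of them higher with number 3 than with number 1. Besides Pmaip1 these were led by Bcl2a1b, Bcl2a1a and Bcl2a1d, anti-apoptotic genes of blood cells that are near-identical copies, so reads may be split between them. Bcl2a1b averaged 1.72, 5.10 and 8.21 CPM with numbers 1, 2 and 3 (adjusted p = 4.68e-06). With the block these 3 copies, 3 of the 13 genes where 8.63% of all genes passed, fell on both myelin coats against both without, by 0.65 ± 0.14 for Bcl2a1b, 0.90 ± 0.23 for Bcl2a1a and 0.95 ± 0.18 for Bcl2a1d on the log2 scale (adjusted p 0.0193, 0.0333 and 0.0131), and these calls held in 8, 2 and 10 of 12 fits that each left out 1 library. Mcl1, the other main survival gene of the family, did not pass between coats with or without the block.

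Of 16 genes of caspases and their control that are reported, 0 passed between coats with or without the block. With it, 14.4%, 8.15% and 13.6% of all genes passed for Myelin, Laminin and Laminin+Myelin against PDL. Between replicate numbers 3 (18.8%) passed, against 39.9% of all genes, the lowest share of the 6 lists. All 3 were higher with number 3 than with number 1. Casp8, the initiator caspase of death receptors, averaged 0.509, 1.42 and 2.56 CPM with numbers 1, 2 and 3, and Birc3, a caspase inhibitor, passed too (adjusted p 2.64e-05 and 1.18e-05). The other was Dffb, a nuclease that cuts DNA in dying cells (adjusted p = 0.00408).

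Of 11 genes of the death receptor route, 7 (63.6%) passed for replicate number, against 39.9% of all genes, 5 of them higher with number 3 than with number 1. Cflar, which blocks Casp8 at the receptor, averaged 4.53, 7.88 and 12.3 CPM with numbers 1, 2 and 3, and Fas 0.946, 1.91 and 3.50 CPM (adjusted p 1.02e-05 and 0.000162). Ngfr, the p75 neurotrophin receptor, ran the other way, with log2 differences from number 2 of 0.33 ± 0.08 for number 1 and -0.31 ± 0.08 for number 3. With the block, 1 of 11 passed for Myelin and 2 for Laminin+Myelin against PDL, where 14.4% and 13.6% of all genes passed. Tnfrsf1a, a receptor for tumour necrosis factor, rose against PDL by 0.95 ± 0.17 on Myelin and by 0.64 ± 0.17 on Laminin+Myelin on the log2 scale (adjusted p 0.00592 and 0.0311). Fasl, the ligand of Fas, fell by 1.19 ± 0.33 on Laminin+Myelin (adjusted p = 0.0339). These calls held in 11, 6 and 7 of 12 fits that each left out 1 library.

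Proliferation genes known to be repressed downstream of p21 were also higher with number 3, the set with the highest Cdkn1a. Of 16 tested, 15 passed (93.8%, against 39.9% of all genes), all 15 higher with number 3 than with number 1. Mki67, a marker of dividing cells, averaged 26.6, 27.2 and 45.3 CPM with numbers 1, 2 and 3 (adjusted p = 0.000195), and Cdc20, which acts in mitosis, had a log2 difference of 0.74 ± 0.11 for number 3 minus number 2. Between coats 0 of 16 passed without the block. With it 1 of 16 passed on Laminin against PDL, where 8.15% of all genes passed. This was Mki67, which fell by 0.64 ± 0.13 on the log2 scale (adjusted p = 0.0225). Its call held in 10 of 12 fits that each left out 1 library.

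Markers of cell types moved with the replicate numbers as well. Neuron markers summed to 7105 to 7218 CPM with number 3 and 8460.5 to 9029.5 CPM with number 1, and 4 of 5 passed, all higher with number 1. Neural progenitor markers summed to 670 to 876 CPM with number 3 and 409 to 512 CPM with number 1, with 6 of 6 called. Microglia markers summed to 22.9 to 46.1 CPM with number 3 and 6.12 to 10.8 CPM with number 1, with 5 of 6 called. Endothelial markers summed to 8.92 to 10.6 CPM with number 3 and 2.54 to 4.14 CPM with number 1. Pecam1 and Kdr made up nearly all of this sum and were the 2 tested. Cdh5 and Cldn5, also on the list, were at or below 0.0966 CPM in every library. Of 5 astrocyte markers, 3 were called, all higher with number 3 than with number 1. Mesenchyme markers summed to 22.8 to 56.8 CPM with number 3 and 49.2 to 85.9 CPM with number 1. Of these 5 markers 4 were called, 3 higher with number 1 and 1 higher with number 3. Of 7 mature myelin markers 6 were called, all higher with number 3 than with number 1. Of 5 spinal cord Hox genes 4 were called, 3 higher with number 1 and 1 higher with number 3. Erythroid markers were at or below 0.106 CPM in every library. The part of these cell types in the differences of Cdkn1a and the other genes was not tested.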

How the data were processed

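RNA of 12 wells was sequenced as paired-end libraries, per the labels' protocols. Whole-number counts per gene, which the authors deposited without normalization, were tested; the authors also deposited log2 fold changes and adjusted p-values for pairs of coats, quoted only where named. Another 12 columns of per-sample values were not used, nor were wells with myelin and no cells. CASAVA 1.8.2, edgeR and the builds mm10 and GRCm38 stand in the submitters' processing notes, whereas for aligner, counter, annotation and strand nothing is given in the sources used here. Of 21033 entries, 3 named no gene (reads outside genes, aligned to several places at 11.5% to 13.6%, or matching several genes at 0.579% to 0.717%) and stayed out of library sizes and tests. CPM are scaled by TMM.

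Tests used R 4.3.3 with edgeR 4.0.16 (quasi-likelihood, robust, filterByExpr on the 4 groups, Benjamini-Hochberg over 15737 genes, threshold 0.05), all 12 libraries and a coefficient per coat without a block. Replicate number was tested with 2 degrees of freedom beside coat. DESeq2 1.42.0, median-of-ratios factors, no low-count filter, each library left out, a replicate block, and a covariate for reads outside genes were the alternatives. The scripts were tested on simulated data. The numbers pair the libraries by the data, not the labels: deviations of log2 CPM (prior count 2) from coat means correlated above 0.1 in 18 of 18 same-number pairs (0.218 to 0.830), against -0.770 to 0.243 in 36 pairs of different numbers. The coefficient of biological variation was 0.205 without and 0.0901 with the block. Replicates differed beyond sampling noise (chi-square per degree of freedom 18.5 to 73.7), so each counted once. Log2 changes carry standard errors (SE), and means standard deviations (SD).

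The genes and the 6 lists beside them were chosen with earlier results of these data known. All 10 genes are given in full, and from each list the up to 4 called genes with the smallest p in a comparison. Positions are from GENCODE M21 by symbol, promoters from RefSeq. Some genes of the lists are not reported here and were left out of the counts over their list.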

Additional observations from a re-analysis of the deposited data

How the results depend on the processing

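The numbers pair the libraries, and the replicate block moved the calls most. With the block, 1 of the 10 genes passed for Myelin against PDL, 2 for Laminin, 1 for Laminin+Myelin and 1 for both myelin coats against both without, where 0 passed without it; DESeq2 called 1 in the last. Over all genes, the calls without the block, with it and by DESeq2 were 360, 2268 and 1033 for Myelin against PDL; 0, 1282 and 488 for Laminin; 196, 2133 and 945 for Laminin+Myelin (127 without the low-count filter); 3, 16 and 7 for Laminin+Myelin against Laminin; 4, 18 and 9 for Myelin against Laminin; and 4, 1358 and 583 for both myelin coats. For the interaction DESeq2 called 6, and edgeR 0. Leaving out 1 library, over fits with and without the block, gave 0 to 4 of the 10 genes for Myelin and for Laminin+Myelin against PDL, 0 to 2 for Laminin and 0 to 5 for both myelin coats. Over all genes these fits gave 2 to 5210, 0 to 5155 and 0 to 2481 for Myelin, Laminin+Myelin and Laminin against PDL, 4 to 4795 for both myelin coats, 0 to 186 for Laminin+Myelin against Laminin, 1 to 336 for Myelin against Laminin and 0 to 83 for the interaction. For replicate number they gave 7 to 8 of the 10 genes and 4700 to 7841 in all.

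With reads outside genes as a covariate, 0 of the 10 genes passed; over all genes 0 passed for Myelin, for Laminin+Myelin and for both myelin coats, and with the block 0, 0 and 7, with 42 for Laminin+Myelin and 50 for Myelin against Laminin. Of 64 log2 changes given for the 3 coats against PDL and for both myelin coats, 26 took the other sign with the covariate. With covariate and block 19 did, 15 of them with a shift of more than 1 SE. With the block alone 1 did, with DESeq2 1 and with median-of-ratios factors 2, those 4 with shifts of less than 1 SE. Leaving out 1 library gave 80 other signs among 1536 values, 2 of them with a shift of more than 1 SE. For Laminin+Myelin against PDL, the log2 change ran from -0.095 to 0.12 for Trp53 and from -0.52 to 0.29 for Bbc3, lowest without Laminin+Myelin replicate 3. Since PDL differed from every other coat in this covariate, the 2 cannot be told apart and the cause was not tested. The following log2 changes took the other sign with the covariate and shifted by more than 1 SE, though some ended close to 0. On Myelin against PDL they were Mdm2 0.36, Bbc3 1.28, Bax -0.093, Trp53inp1 0.24, Bcl2l1 -0.42, Dram1 0.30 and Atr 0.32. With the block they were Ccng1 -0.13, Bax -0.21, Phlda3 -0.021, Bcl2l1 -0.19 and Fdxr 0.15. On Laminin they were Trp53 0.36, Mdm2 0.36, Ccng1 0.69, Trp53inp1 0.15, Bcl2l1 -0.31, Atr 0.21 and Atm 0.033, and with the block Trp53 0.13, Bcl2 -0.14 and Bcl2l1 -0.094. On Laminin+Myelin they were Mdm2 0.32, Bax -0.069, Trp53inp1 0.22, Bcl2l1 -0.41, Dram1 0.29, Atr 0.31 and Fasl 0.25, and with the block Ccng1 -0.15, Bax -0.19, Bcl2l1 -0.19, Fdxr 0.14 and Fasl 0.60. For both myelin coats they were Mdm2 0.16, Bbc3 0.61, Bcl2l1 -0.26, Bcl2a1b 0.55 and Bcl2a1a 0.43, and with the block Trp53inp1 -0.12 and Bcl2l1 -0.14.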
